A study of Mus musculus with 2 samples.

Results

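The genes described here encode the peptide adrenomedullin (Adm), its receptor Calcrl and the receptor-modifying proteins Ramp1, Ramp2 and Ramp3. They are 5 of the 53698 gene entries of the deposited matrices, taken by symbol, and they were chosen with earlier results of these data known, so the differences below are descriptions. Stromal cells positive for PDGF receptors alpha and beta had been sorted from kidneys of FVBN mice, and 3′ droplet single-cell RNA sequencing counted their transcripts by molecular barcodes (unique molecular identifiers, UMIs). Of the 2 libraries, 1 is labelled sham and the other UUO, day 10, for unilateral ureteral obstruction, in which a tied ureter leads to fibrosis of that kidney. The labels give neither age nor sex, nor how many animals entered a library.

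Adrenomedullin is a secreted peptide of the calcitonin family that dilates vessels and whose transcription is known to respond to low oxygen. Calcrl is a receptor that couples to the G protein Gs and raises cyclic AMP, and it reaches the cell surface in company with a RAMP. With Ramp1 it binds calcitonin gene-related peptide, and with Ramp2 or Ramp3 it binds adrenomedullin. In vessels, endothelial cells and contractile mural cells are the known sites of this receptor, and in the kidney the peptide is known for effects on blood flow and sodium excretion.

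The library labelled sham held 85359332 UMIs over 10812 barcodes, and the library labelled UUO held 6023072 over 1291. After filtering, 9748 and 1043 cells were used, with medians of 7567 and 4143 UMIs per cell. Of the barcodes, 16 were present in both libraries, 11 of them among the cells used. A single library stands for each group, so no difference has a check by replicates, and no test was made. All intervals below are exact 95% intervals for counting error only (Poisson for levels, conditional binomial for ratios, Clopper-Pearson for shares of cells). Because Spp1 and Timp1, transcripts known to rise in kidney injury, stood higher in the sham library, groups are named as labelled and no difference is ascribed to the operation. Both libraries held fibroblast-like cells with the X-inactivation transcript Xist and no Y-linked UMI (58.9% of those labelled sham, 29.9% of those labelled UUO) and cells with the reverse pattern (17.2% and 32.4%).

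Cells were placed in classes by UMIs of marker genes that include none of the 5 genes. Fibroblast-like cells, with at least 5 of 8 markers such as Pdgfra, Dcn and Col1a1, numbered 7557 labelled sham (median 8628 UMIs) and 552 labelled UUO (6748 UMIs). Endothelial-like cells, with at least 6 of 10 markers such as Pecam1, Cdh5 and Kdr, numbered 328 (4143 UMIs) and 56 (5875 UMIs). Mural-like cells, with at least 2 of 8 markers such as Rgs5, Notch3 and Ren1, numbered 40 (3712 UMIs) and 32 (3400 UMIs), and 33 and 30 of them fell in a single cluster led by the renin gene Ren1, Rgs5 and Hopx. By further marker lists 32 of the 40 mural-like cells labelled sham had most renin-cell markers, against 10 of the 32 labelled UUO, where 21 had most pericyte markers. The make-up of the class thus differed between libraries, and its part in the mural-like differences was not tested. Different clusters held most endothelial-like cells, cluster 9 (led by Fabp4, Gpihbp1 and Plvap) 299 of the 328 labelled sham and cluster 24 (led by Gimap4, Cd300lg and Fabp4) 45 of the 56 labelled UUO. These marker minimums were set after the data were seen. At the minimum itself lay 1894 and 109 fibroblast-like, 30 and 3 endothelial-like and 12 and 7 mural-like cells, and 829 and 96, 31 and 8, and 4 and 4 cells had 1 marker too few.

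Levels are a gene's UMIs over all UMIs of the class, given per 1000000 (CPM), so they compare 1 gene between groups and not 2 genes with each other.

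**Figure D1:**
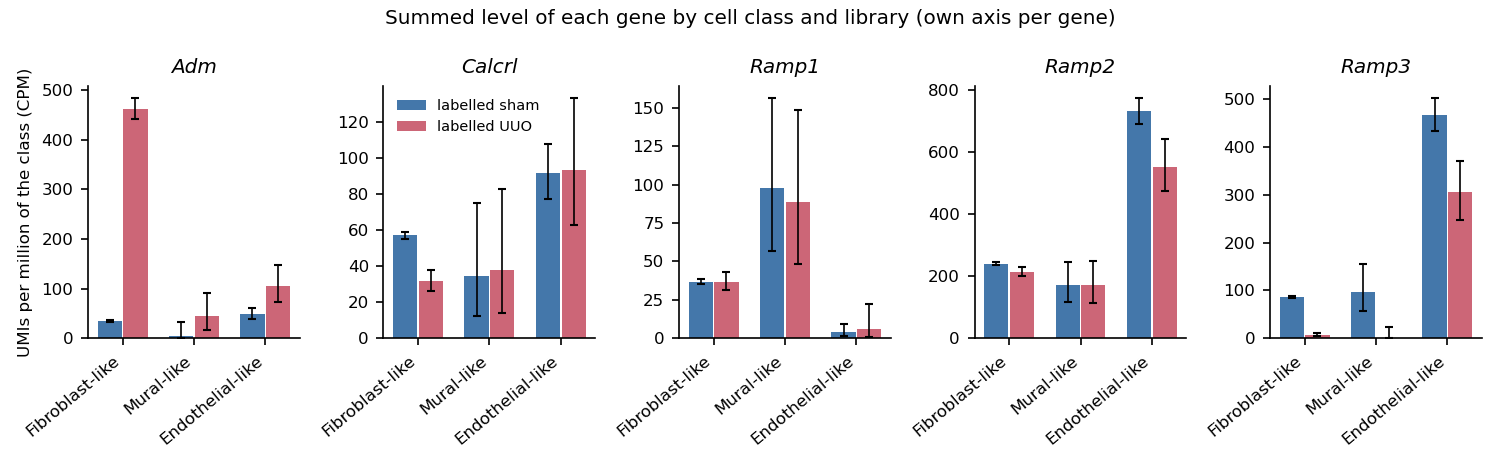
Level of each gene (CPM, own axis per gene) in fibroblast-, mural- and endothelial-like cells of the libraries labelled sham (blue) and UUO (red), with exact 95% Poisson intervals for counting error. Adm reached 463 CPM in fibroblast-like cells labelled UUO, and Ramp2 and Ramp3 stood highest in endothelial-like cells of both libraries.

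Adm, the peptide gene, lies on chromosome 7 (GRCm38, 110627661 to 110629820, plus strand). In fibroblast-like cells it stood at 35.0 CPM (2255 UMIs) in the library labelled sham and at 463 CPM (1854 UMIs) in the library labelled UUO. The level labelled UUO was 13.2-fold higher (12.4 to 14.0). As background, 12.2% of the 9555 genes measured (10 CPM or more in at least 1 library) stood 2-fold or more higher labelled UUO, with 5 CPM added, and 4.94% stood 2-fold or more lower. Of the 5 genes, Adm was higher by that measure and Ramp3 lower, and since the choice of genes knew this contrast nothing is read from the count. The log2 ratio of Adm (5 CPM added) was 3.55, above that of 99.6% of those genes, whose median was -0.03.

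Adm was found in 14.6% (13.8 to 15.4) of fibroblast-like cells in the sham library and 59.96% (55.7 to 64.1) in the UUO library. Thinned to an equal 1000 UMIs, 2.73% (2.37 to 3.12) of 7519 cells and 23.98% (20.4 to 27.8) of 538 held it. The UMIs were unevenly spread. Labelled sham, 7 of 7557 cells held at least 20 Adm UMIs, the highest 50, and the top 1% of cells held 34.2% of all Adm UMIs of the class. Labelled UUO, 18 of 552 cells held at least 20, the highest 79, and the top 1% held 17.9%.

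**Figure D2:**
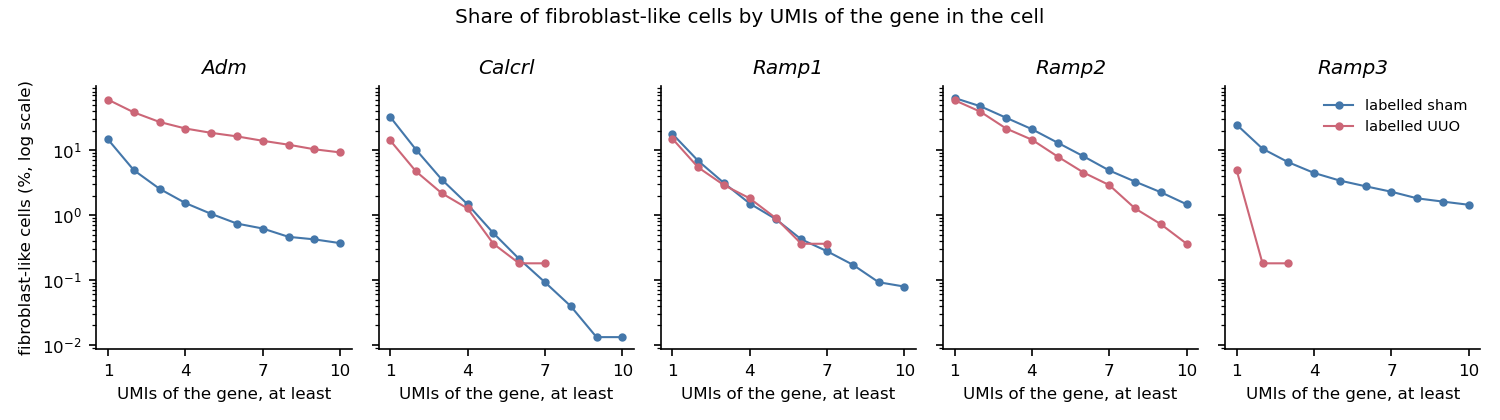
Share of fibroblast-like cells (%, log scale) holding at least the number of UMIs of the gene on the horizontal axis, for the libraries labelled sham (blue) and UUO (red). At 5 or more Adm UMIs the shares were 1.05% labelled sham and 18.5% labelled UUO, and at 5 or more Ramp3 UMIs 3.40% labelled sham and no cell labelled UUO.

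Within the library labelled UUO, Adm was lower in endothelial- and mural-like than in fibroblast-like cells. Endothelial-like cells held 49.1 CPM (38.8 to 61.3) labelled sham and 106 CPM (73.2 to 148) labelled UUO. Mural-like cells held 1 Adm UMI labelled sham and 7 UMIs, or 44.2 CPM (17.8 to 91.1), labelled UUO. The ratio of mural- to fibroblast-like cells was 0.164 (0.00414 to 0.913) labelled sham, and mural-like cells labelled UUO stood 10.5-fold lower (5.07 to 26.0) than fibroblast-like cells. Endothelial-like cells labelled UUO stood 4.38-fold lower (3.12 to 6.34) than fibroblast-like cells.

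Free RNA from lysed cells can give Adm UMIs to any droplet, and it was gauged from other classes. Proximal tubule-like cells labelled UUO held 96.6 CPM (68.0 to 133), with Adm in 22.5% (13.5 to 34) of 71 cells at a median of 2105 UMIs. The share of endothelial-like cells labelled UUO with Adm was 37.5% (24.9 to 51.5) at 5875 UMIs, and after thinning 9.09% beside 7.14% of the tubule-like cells. The intervals of endothelial- and mural-like cells labelled UUO overlapped that of tubule-like cells, so Adm there was not distinguishable from the level in a class used as background and is not read as expression. Set against the UMIs of the 8 fibroblast markers in the same cells, Adm gave 21.0 (20.1 to 22.0) per 1000 in fibroblast-like cells labelled UUO, 53.5 (37.0 to 74.7) in endothelial-like and 48.3 (34.01 to 66.6) in tubule-like cells. The ratio was lower in fibroblast-like cells than in either of the others. Cells were placed in that class by these same marker UMIs, so nothing is read from this order. Whether the Adm of tubule-like cells was free RNA was not tested. Leukocyte-like cells labelled sham held 9.48 CPM (5.30 to 15.6) with Adm in 4.44% of 293 cells at 5016 UMIs, below endothelial-like cells with Adm in 10.7% at 4143 UMIs. Loop- and distal tubule-like cells labelled sham held 27.9 CPM (21.0 to 36.3), which overlapped the fibroblast-like level labelled sham (33.6 to 36.5). That fibroblast-like level was thus not distinguishable from this class. The fold between libraries given above compares measured levels with any background included.

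The promoters of the genes with the highest and lowest ratio of the 5 in fibroblast-like cells, Adm and Ramp3, are shown because adrenomedullin is known as a hypoxia-responsive gene. Each runs 5′ to 3′ on the gene's strand, from 250 bases before to 50 bases after the start, in RefSeq of GRCm38.p6. Capitals mark matches to the core of the hypoxia response element (ACGTG or GCGTG, on either strand). The windows are chr7:110627407-110627706 for Adm and chr11:6658283-6658582 for Ramp3, both on the plus strand.
Adm: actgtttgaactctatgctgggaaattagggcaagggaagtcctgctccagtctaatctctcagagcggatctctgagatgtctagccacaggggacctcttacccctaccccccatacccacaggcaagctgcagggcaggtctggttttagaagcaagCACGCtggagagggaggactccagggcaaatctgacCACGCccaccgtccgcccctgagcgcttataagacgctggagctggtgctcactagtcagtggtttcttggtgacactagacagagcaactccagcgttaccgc
Ramp3: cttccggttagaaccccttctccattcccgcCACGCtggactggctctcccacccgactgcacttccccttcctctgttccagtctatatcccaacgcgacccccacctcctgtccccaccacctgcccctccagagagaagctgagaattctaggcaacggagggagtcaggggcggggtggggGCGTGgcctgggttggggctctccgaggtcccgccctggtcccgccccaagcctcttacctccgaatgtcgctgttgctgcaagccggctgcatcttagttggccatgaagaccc

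Both promoters held 2 matches. Of 32544 RefSeq promoters of the same 300 bases, 44.0% held at least 1 match and 20.8% held at least 2. The Calcrl promoter held 1 match and the Ramp1 promoter none, and Ramp1 held the only match among these 4 to the cyclic AMP response half-site TGACG (either strand), which 20.9% of promoters hold. The Ramp2 promoter was not matched. A match to so short a string is a description, not a site.

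Within fibroblast-like cells, clusters with at least 30 such cells in a library numbered 13 labelled sham and 4 labelled UUO, and none of these passed 30 cells in both libraries. Clusters were built from all variable genes, so their differences are a description. Adm labelled UUO stood at 680.0 CPM (647 to 714) in cluster 11, led by Clec3b, Sfrp4 and Inmt. The other clusters of that library held 256 CPM (cluster 25, led by Car3, Rbp4 and Cyp2e1), 157 CPM (cluster 10, led by Serpina1d, Igfbp3 and Il11ra1) and 127 CPM (cluster 16, led by haemoglobin genes). Cluster 11 held 84.7% of the Adm UMIs and 49.6% of the fibroblast-like cells. Without cluster 11 the level labelled UUO was 167 CPM, 4.76-fold (4.19 to 5.38) that of the library labelled sham. That fold compares measured levels with any background included. The interval of cluster 16 (57.9 to 240.5 CPM, on 9 UMIs) overlapped that of proximal tubule-like cells labelled UUO (68.0 to 133 CPM). Adm in cluster 16 is thus not read as expression.

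Over the sham clusters Adm ranged from 8.43 CPM (5.97 to 11.6) in cluster 8, led by Spp1, Ptn and Npr3, to 207 CPM (173 to 247) in cluster 19, led by Cldn11, Cdkn1c and Igfbp5. Cluster 15, led by Meg3, Ptx3 and Ccl7, stood next at 151 CPM (132 to 172), and the other 11 clusters held at most 42.5 CPM. Labelled UUO, cluster 16 had an interval of 57.9 to 240.5 CPM on 9 UMIs and cluster 10 of 135 to 181 CPM. Both overlapped those of clusters 15 and 19 labelled sham, and the interval of cluster 25 labelled UUO (201 to 321 CPM) overlapped that of cluster 19. No order is read among these clusters.

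**Figure D3:**
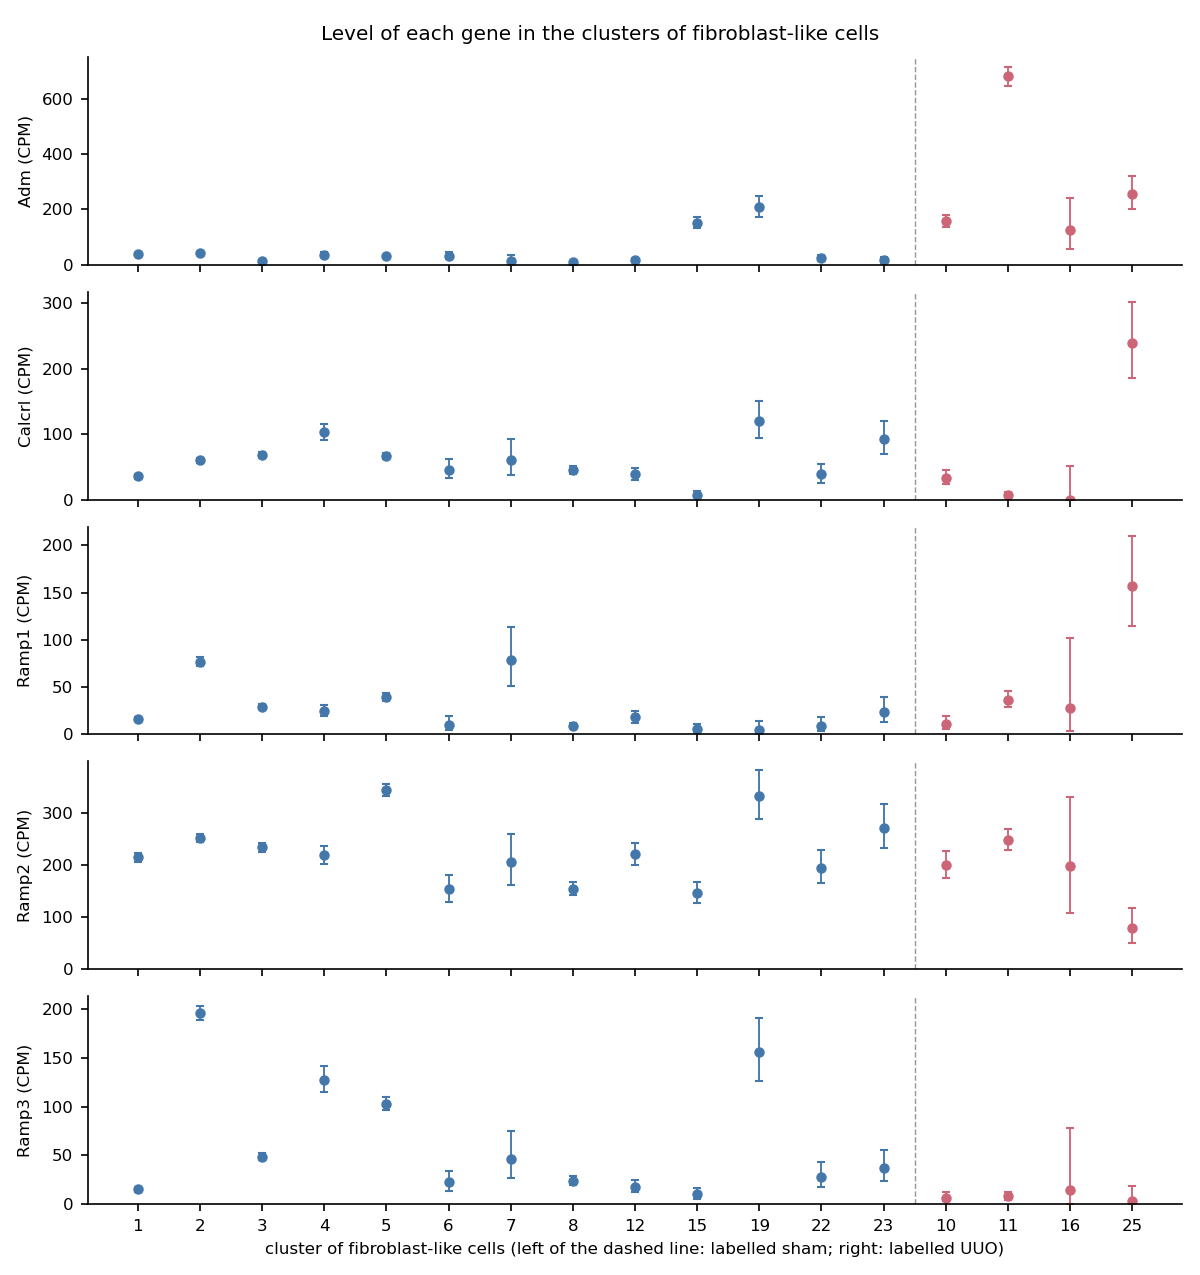
Level of each gene (CPM) in clusters of fibroblast-like cells, with exact 95% Poisson intervals; clusters of the library labelled sham are left of the dashed line and those labelled UUO right of it. Adm stood highest in cluster 11, Calcrl and Ramp1 in cluster 25 and Ramp3 in cluster 2, while Ramp2 lay between 146 and 344 CPM in every cluster but 25.

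Calcrl, the receptor gene (chromosome 2, GRCm38, 84330626 to 84425411, minus strand), stood at 57.1 CPM (55.3 to 59.0) in fibroblast-like cells labelled sham and at 31.7 CPM (26.4 to 37.7) in those labelled UUO. The level labelled UUO was 1.80-fold lower (1.51 to 2.17), a log2 ratio of -0.76. Calcrl was found in 32.5% (31.4 to 33.6) and 14.1% (11.3 to 17.3) of cells, and after thinning in 5.44% (4.94 to 5.98) and 3.16% (1.85 to 5.01). Leukocyte-like cells labelled sham held it in 4.10% of cells at a median of 5016 UMIs, and tubule-like cells labelled UUO in 1.41% at 2105 UMIs, both below the fibroblast-like class.

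The library difference in Calcrl was not shared by the clusters. Cluster 25, labelled UUO, stood at 239 CPM (186 to 302) and held 55.1% of the Calcrl UMIs with 6.88% of the cells. Cluster 10 stood at 33.5 CPM (24.02 to 45.4) and cluster 11, where Adm was highest, at 6.93 CPM (3.96 to 11.2). Without cluster 25 the level labelled UUO was 15.3 CPM, 3.72-fold lower (2.87 to 4.92) than labelled sham. Without cluster 11 it was 65.4 CPM and the ratio was 1.14 (0.939 to 1.38), so the direction of the difference turned with the clusters counted. Labelled sham, Calcrl ranged from 7.41 CPM in cluster 15 to 120 CPM (94.2 to 151) in cluster 19. Cluster 15 thus had Adm at 151 CPM beside little Calcrl, and cluster 19 had both high.

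Endothelial-like cells held Calcrl at 91.3 CPM (77.1 to 107) labelled sham and 93.2 CPM (62.9 to 133) labelled UUO. The ratio between libraries was 1.02 (0.665 to 1.52). Within the library labelled sham the endothelial-like level was 1.60-fold (1.35 to 1.89) the fibroblast-like level, and within the library labelled UUO 2.94-fold (1.91 to 4.41). Mural-like cells held 6 Calcrl UMIs in each library, 34.4 CPM (12.6 to 75.0) and 37.9 CPM (13.9 to 82.5). Of the 6 labelled sham, only 1 lay in the 33 cells of cluster 20, against 5 in the other mural-like cells. Calcrl in that cluster, 7.30 CPM (0.185 to 40.7), was not distinguishable from the 7.58 CPM (3.92 to 13.2) of leukocyte-like cells.

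Ramp1, which with Calcrl forms the receptor for calcitonin gene-related peptide, lies on chromosome 1 (GRCm38, 91179822 to 91225196, plus strand). Its level in fibroblast-like cells was 37.0 CPM (35.5 to 38.5) labelled sham and 36.9 CPM (31.2 to 43.4) labelled UUO. The ratio was 0.999 (0.840 to 1.18), so the libraries did not differ beyond counting error. The clusters did. Labelled sham, cluster 2, led by Ahcy, Rxfp1 and Ramp3, stood at 77.0 CPM (72.7 to 81.5) and held 50.4% of Ramp1 UMIs with 20.2% of cells. Cluster 7, led by haemoglobin genes, stood at 78.3 CPM (51.6 to 114) on 27 UMIs, and cluster 19 lowest at 4.94 CPM (1.02 to 14.4). Labelled UUO, cluster 25 stood at 157 CPM (115 to 209), cluster 11 at 36.8 CPM (29.4 to 45.5) and cluster 10 at 11.4 CPM (6.25 to 19.2).

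Among fibroblast-, mural- and endothelial-like cells, Ramp1 stood highest in mural-like and lowest in endothelial-like cells in both libraries. Mural-like cells held 97.6 CPM (56.8 to 156) on 17 UMIs labelled sham and 88.5 CPM (48.4 to 148) on 14 UMIs labelled UUO. The UMIs lay in 8 and 6 cells, and a single cell held 35.3% of them labelled sham and 35.7% labelled UUO, so these levels rest on few cells. These levels were 2.64-fold (1.54 to 4.24) and 2.40-fold (1.28 to 4.15) the fibroblast-like levels. Endothelial-like cells held 7 UMIs labelled sham, 4.41 CPM (1.77 to 9.08), and 2 UMIs labelled UUO, 6.22 CPM (0.753 to 22.5). The endothelial-like level labelled sham was 8.38-fold lower (4.06 to 20.9) than the fibroblast-like level, and the ratio labelled UUO was 0.168 (0.0202 to 0.619). Ramp1 was found in 1.83% (0.674 to 3.94) of endothelial-like cells labelled sham at a median of 4143 UMIs, against 20% (9.05 to 35.6) of mural-like cells at 3712 UMIs.

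Ramp2, the partner that with Calcrl forms the main adrenomedullin receptor of endothelium, lies on chromosome 11 (GRCm38, 101246028 to 101259546, plus strand). It overlaps Vps25 on the same strand by 5840 bases, and 20.2% and 16.9% of its nonzero values were not whole, against none for the other 4 genes, so its counts carry that uncertainty. Endothelial-like cells held 731 CPM (689 to 774) labelled sham and 553 CPM (475 to 641) labelled UUO, the highest level of the classes in each library. They were 3.04-fold (2.86 to 3.23) and 2.57-fold (2.17 to 3.02) above fibroblast-like cells. Between libraries the endothelial-like level labelled UUO was 1.32-fold lower (1.13 to 1.56), a difference between cells mostly of cluster 9 and cells mostly of cluster 24.

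In fibroblast-like cells Ramp2 stood at 240.5 CPM (236.7 to 244) labelled sham and 215 CPM (201 to 230.1) labelled UUO, a ratio of 0.895 (0.835 to 0.959). It was found in 75.6% (74.6 to 76.6) and 67.2% (63.1 to 71.1) of cells, and after thinning in 19.4% (18.5 to 20.3) and 18.4% (15.2 to 21.9). Proximal tubule-like cells labelled UUO held Ramp2 in 39.4% (28.03 to 51.7) of cells at 2105 UMIs and, after thinning, in 17.9% (8.91 to 30.4), so the thinned shares were not distinguishable. Their level, 120.1 CPM (87.9 to 160.1), lay below the fibroblast-like level. It was the most even of the 5 genes over clusters, from 146 CPM in cluster 15 to 344 CPM in cluster 5 (led by Cxcl12, Smoc2 and Gpm6a) labelled sham, and from 78.5 CPM (49.8 to 118) in cluster 25 to 248 CPM in cluster 11 labelled UUO. Cluster 25 thus had the highest Calcrl and Ramp1 of the library labelled UUO beside the lowest Ramp2. Mural-like cells held 172 CPM (116 to 246) and 171 CPM (112 to 248). A single cell held 40.7% of these Ramp2 UMIs labelled sham and 51.9% labelled UUO, so these levels rest on few cells. In cluster 20 alone the level labelled sham was 102 CPM (55.9 to 172), which was not distinguishable from the 74.6 CPM (61.7 to 89.3) of leukocyte-like and 96.4 CPM (83.2 to 111) of loop- and distal tubule-like cells.

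Ramp3, the other adrenomedullin receptor partner, lies on chromosome 11 (GRCm38, 6658521 to 6677475, plus strand). It stood at 85.4 CPM (83.2 to 87.7) in fibroblast-like cells labelled sham, on 5498 UMIs, and at 7.23 CPM (4.85 to 10.4) in those labelled UUO, on 29 UMIs. The level labelled UUO was 11.8-fold lower (8.21 to 17.7), a log2 ratio of -2.89, below that of all but 0.136% of genes. It was found in 24.7% (23.7 to 25.7) and 4.89% (3.25 to 7.04) of cells, and after thinning in 5.84% (5.32 to 6.39) and 0.558% (0.115 to 1.62). Proximal tubule-like cells labelled UUO held Ramp3 in 7.04% (2.33 to 15.7) of cells at 2105 UMIs, so the share in fibroblast-like cells labelled UUO, at 6748 UMIs, is read as background and not as expression, and the fold above compares measured levels with that background included. Labelled sham, loop- and distal tubule-like cells held Ramp3 at 27.9 CPM (21.0 to 36.3), in 22.8% (16.5 to 30.1) of cells at 10585 UMIs and, after thinning, in 1.91% (0.396 to 5.48). The 19 proximal tubule-like cells labelled sham held it at 57.8 CPM (26.4 to 110) on 9 UMIs. This interval overlapped those of fibroblast- and mural-like cells labelled sham, so neither level was distinguishable from that small class. Folds with these 2 levels compare measured levels with any background included. Antisense to Ramp3 lies Gm11978, which held 0.0311 CPM in fibroblast-like cells labelled sham and was listed at 0 labelled UUO.

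Labelled sham, 34 fibroblast-like cells held at least 20 Ramp3 UMIs, the highest 84, and the top 1% of cells held 31.6% of the Ramp3 UMIs. Cluster 2 stood at 196 CPM (189 to 203) and held 55.5% of them with 20.2% of the cells. Ramp3 is a leading gene of that cluster, so this value was used in building it. Without cluster 2 the level labelled sham was 50.2 CPM, and the library labelled UUO stood 6.94-fold lower (4.82 to 10.4). Clusters 19, 4 and 5 followed at 156, 127 and 103 CPM, and cluster 15 was lowest at 10.1 CPM (5.66 to 16.7). All 4 clusters labelled UUO lay between 3.41 and 14.1 CPM.

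Endothelial-like cells held Ramp3 at 467 CPM (434 to 502) labelled sham and 305 CPM (247 to 371) labelled UUO, in 70.7% and 62.5% of cells. They were 5.46-fold (5.05 to 5.90) above fibroblast-like cells labelled sham, and no fold is given labelled UUO, where the fibroblast-like level is read as background. Between libraries the endothelial-like level labelled UUO was 1.53-fold lower (1.24 to 1.91), again between cells mostly of clusters 9 and 24. Mural-like cells held 17 Ramp3 UMIs labelled sham, 97.6 CPM (56.8 to 156), and 0 labelled UUO, where 3 UMIs would be 19.0 CPM. The mural-like level labelled sham was 5.15-fold that of 3 UMIs labelled UUO, a value that leaves out counting error. The Poisson upper limit of the 0 was 23.3 CPM. Against fibroblast-like cells the mural-like level labelled sham gave a ratio of 1.14 (0.665 to 1.83). No fold is given labelled UUO, where both stood under the 19.0 CPM of 3 mural-like UMIs. Of the 17 UMIs labelled sham, 15 lay in cells with most renin-cell markers, the subset that was smaller labelled UUO. Within that subset Ramp3 stood at 121 CPM (67.5 to 199) labelled sham and at 0 labelled UUO, with an upper limit of 52.3 CPM. In mural-like cells of cluster 20 it stood at 110 CPM (61.3 to 181) and at 0, with an upper limit of 24.6 CPM.

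Read against all genes, the contrasts between classes gave these counts. Endothelial- over fibroblast-like cells labelled sham, Ramp2 and Ramp3 were at least 2-fold higher (11.6% of 9619 genes) and Ramp1 lower (10.1%). In the same contrast labelled UUO, Calcrl, Ramp2 and Ramp3 were higher (13.5% of 10211 genes) and Adm and Ramp1 lower (13.0%). Mural- over fibroblast-like cells, Ramp1 was higher and Adm lower in both libraries, where 12.4% and 12.2% of 9893 genes labelled sham and 15.5% and 13.6% of 10485 labelled UUO were higher and lower. With equal weight for each cell Ramp1 fell short of 2-fold in both libraries (log2 ratios of 0.83 labelled sham and 0.71 labelled UUO), as it did labelled sham within cluster 20 (0.89). In endothelial-like cells Adm was the only one of the 5 past 2-fold between libraries, higher labelled UUO (12.3% of genes higher, 8.45% lower). Its log2 ratio was 1.03, and 0.72 with equal weight for each cell, short of 2-fold, and these Adm UMIs were not read as expression above. In mural-like cells, Adm was past 2-fold higher, on 7 against 1 UMI (22.0% of genes), and Ramp3 lower (14.7%).

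**Figure D4:**
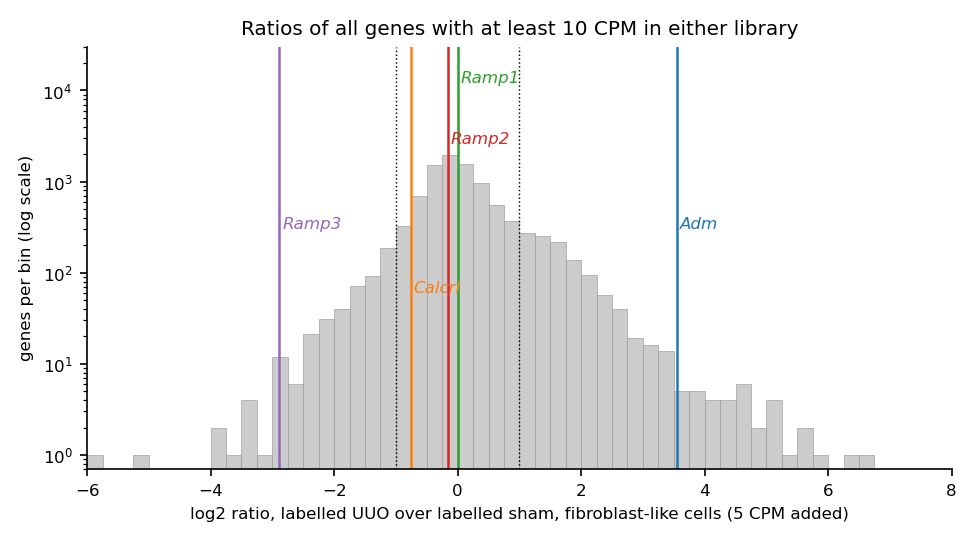
Log2 ratios (labelled UUO over labelled sham, 5 CPM added) of the 9555 genes measured in fibroblast-like cells, with genes per bin on a log scale and dotted lines at a 2-fold difference. Adm lies at 3.55 and Ramp3 at -2.89, near the ends, and Calcrl, Ramp1 and Ramp2 lie inside the dotted lines.

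Among subsets of endothelial-like cells, defined by further marker lists, Ramp3 differed labelled sham between peritubular and arterial cells, while Ramp2 had overlapping intervals. In the library labelled sham, cells with most peritubular capillary markers (303 cells) held Ramp3 at 525 CPM (487 to 564) and Ramp2 at 729 CPM (685 to 775). Cells with most arterial markers (14 cells) held Ramp3 at 42.8 CPM (13.9 to 99.98) and Ramp2 at 771 CPM (620.1 to 948). The 17 endothelial-like cells of cluster 28, led by Aqp1, Cldn5 and Sox17, held Ramp3 at 109 CPM (62.5 to 177.5). Ramp2 in cluster 28 was 656 CPM (531 to 801). Cells with most lymphatic markers (6 cells, mainly in a cluster led by Ccl21a) held 0 Ramp3 UMIs, with an upper limit of 84.1 CPM, beside Ramp2 at 820.5 CPM (575 to 1136) and Calcrl at 205 CPM (93.8 to 389). Labelled UUO, 44 peritubular-marker cells held Ramp3 at 361 CPM (290.3 to 445), and the 2 arterial- and 2 lymphatic-marker cells held none, with upper limits of 397 and 176 CPM. Ramp2 labelled UUO stood at 569 CPM (478 to 671) in the peritubular-marker cells, 323 CPM (66.5 to 943) on 3 UMIs in the arterial- and 239 CPM (77.7 to 558) on 5 UMIs in the lymphatic-marker cells. In cluster 29, led by Ccl21a, Ramp2 labelled UUO was 224 CPM (82.1 to 487) on 6 UMIs in 3 cells, beside 610 CPM (519.9 to 710.4) in cluster 24. These intervals did not overlap. Labelled sham the order was the reverse, with 907 CPM (659 to 1217) in 7 cells of cluster 29 beside 745 CPM (700 to 793) in cluster 9. Those intervals overlapped. These subsets were read from counts in few cells and the arterial and lymphatic values describe single groups of cells.

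A receptor needs Calcrl and a RAMP in the same cell, so joint detection was described. Of 2456 fibroblast-like cells labelled sham with a Calcrl UMI, 88.3% (87.0 to 89.6) also held a UMI of at least 1 Ramp gene. Ramp2 was found in 83.1% (81.6 to 84.6) of them and in 72.0% (70.8 to 73.2) of cells without Calcrl, and Ramp3 in 31.1% (29.3 to 33.0) and 21.6% (20.4 to 22.7). Cells with Calcrl were deeper, at a median of 10126 UMIs against 7812. In cells thinned to 1000 UMIs, Ramp2 was found in 19.8% (16.1 to 24) with and 19.3% (18.4 to 20.3) without Calcrl. The values were 3.42% and 3.39% for Ramp1 and 7.82% (5.41 to 10.9) and 5.72% (5.20 to 6.29) for Ramp3. Thinning also left only 409 cells with a Calcrl UMI, so most cells that had held one counted among the 7110 without, and these shares do not show whether the genes go together at equal depth.

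**Figure D5:**
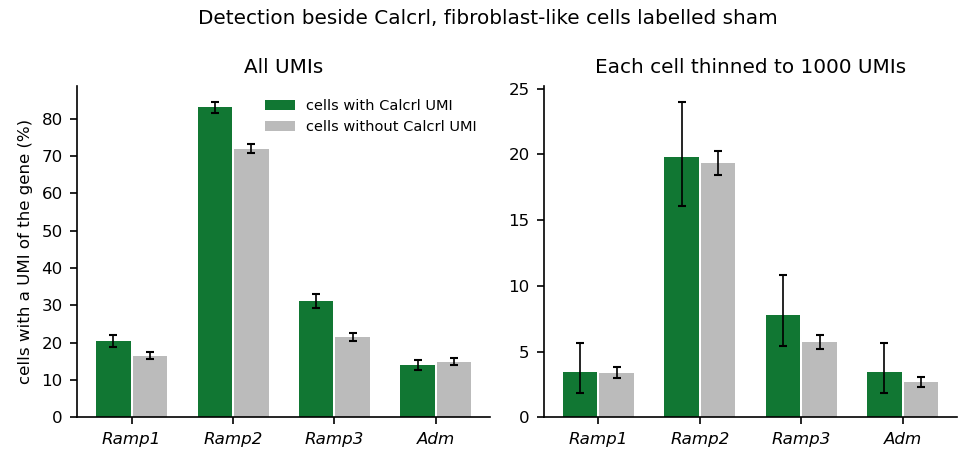
Share of fibroblast-like cells labelled sham (%) with a UMI of Ramp1, Ramp2, Ramp3 or Adm, among cells with (green) and without (grey) a Calcrl UMI, with exact 95% binomial intervals, for all UMIs and for cells thinned to 1000 UMIs. For Ramp2 the shares were 83.1% and 72.0% with all UMIs and 19.8% and 19.3% after thinning.

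In the library labelled UUO, 78 fibroblast-like cells held Calcrl, and 83.3% (73.2 to 90.8) of them held a Ramp gene, Ramp2 in 69.2% (57.8 to 79.2), Ramp1 in 26.9% (17.5 to 38.2) and Ramp3 in 6.41% (2.11 to 14.3). Adm was found in 59.0% (47.3 to 70.0) of these cells and 60.1% (55.6 to 64.6) of cells without Calcrl. Of endothelial-like cells with Calcrl, 94 of 97 labelled sham and 22 of 22 labelled UUO held a Ramp gene. Ramp2 was found in 91.8% (84.4 to 96.4) and 90.9% (70.8 to 98.9) of them, and Ramp3 in 72.2% (62.1 to 80.8) and 59.1% (36.4 to 79.3). After thinning, Ramp2 was found in 29.6% (13.8 to 50.2) of 27 endothelial-like cells labelled sham with Calcrl and 50.7% (44.8 to 56.5) of 296 without. Of the 8 mural-like cells with Calcrl, 2 of 3 labelled sham and 2 of 5 labelled UUO held one.

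The other genes of the pathway came from 8 lists with 83 symbols, chosen with earlier results known, of which 82 were matched. Beside Adm, no peptide of the calcitonin family reached 10 CPM in fibroblast-like cells. Calca, which encodes calcitonin and calcitonin gene-related peptide, stood at 10.1 CPM (16 UMIs) in endothelial-like cells labelled sham and 37.3 CPM (12 UMIs) labelled UUO. Iapp, the amylin gene, and the calcitonin receptor gene Calcr were listed at 0 in the 3 classes of both libraries.

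Of the 8 receptors and receptor partners, 6 had at least 10 CPM in fibroblast-like cells of either library, and beside Ramp3 only Ackr3 passed 2-fold. Ackr3, an atypical receptor that takes up adrenomedullin and the chemokine Cxcl12, stood at 15.8 CPM labelled sham and 101 CPM labelled UUO, 6.41-fold higher (5.70 to 7.20). Gpr182, an endothelial decoy receptor once proposed to bind adrenomedullin, held 88.2 CPM in endothelial-like cells labelled sham and 24.9 CPM labelled UUO, 3.55-fold lower (1.75 to 8.38) on 140 and 8 UMIs.

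Counts of genes past 2-fold in these lists stand beside 12.2% of all measured genes higher and 4.94% lower, and their medians beside -0.03. Of the 6 genes of peptide maturation and breakdown, 3 were higher labelled UUO and none lower in fibroblast-like cells, with a median log2 ratio of 0.43. Pam, the enzyme that amidates adrenomedullin, stood at 114 and 342 CPM, 3.01-fold higher (2.84 to 3.19) labelled UUO. Mme, the peptide-cleaving enzyme neprilysin, stood at 17.1 and 84.8 CPM, 4.95-fold higher (4.37 to 5.59). Pcsk5, a proprotein convertase, stood at 15.2 and 35.9 CPM. The convertase Furin gave a log2 ratio of -0.60.

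Downstream of the receptor, 14 of 22 genes of Gs and cyclic AMP signalling had at least 10 CPM. None was 2-fold higher and 1, the adenylyl cyclase Adcy7, was lower, at 40.9 CPM labelled sham and 16.5 CPM labelled UUO, 2.48-fold (1.95 to 3.22). The median log2 ratio was -0.28. The phosphodiesterase Pde4b gave 0.80 and the kinase subunits Prkar2a and Prkar1a 0.35 and -0.81, and the cyclase Adcy8 was listed at 0. Of 7 measured cyclic AMP-responsive genes, Per1 was higher labelled UUO, at 9.43 and 47.9 CPM, 5.08-fold (4.29 to 5.98), and none was lower. Nr4a1, Fosl2 and Nr4a2 gave log2 ratios of 0.68, -0.28 and -0.37, and the list's median was 0.50.

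Of 9 other receptors known to pair with RAMPs, only Pth1r, the parathyroid hormone receptor, had at least 10 CPM in fibroblast-like cells, at 64.5 CPM labelled sham and 35.7 CPM labelled UUO, while Pth2r and Crhr1 were listed at 0. Among 12 genes of other vasoactive peptide systems, 7 were measured, with a median log2 ratio of -0.94. The natriuretic peptide receptor Npr1 (4.60 and 28.9 CPM) and the angiotensin receptor Agtr1a (72.4 and 165 CPM) were higher labelled UUO. The clearance receptor Npr3 (44.7 and 7.98 CPM), the endothelin receptor Ednrb (26.6 and 6.49 CPM) and the C-type natriuretic peptide Nppc (32.3 CPM and 1 UMI, ratio 0.00773, 0.000196 to 0.0431) were lower. Vip was listed at 0.

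Of 12 hypoxia genes, 7 were measured in fibroblast-like cells. Of these, 1 was higher and none lower, beside 12.2% and 4.94% of all genes, and their median log2 ratio was -0.17 beside -0.03. Vegfa, the vascular growth factor, stood at 12.2 CPM labelled sham and 32.4 CPM labelled UUO, 2.66-fold higher (2.19 to 3.20). Ndrg1 gave a log2 ratio of 0.95, the glucose transporter Slc2a1 -0.35 and the lactate dehydrogenase Ldha -0.72.

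Markers of other cell types moved with the library in fibroblast-like cells. The 5 erythroid markers summed to 138 CPM labelled sham and 4147 CPM labelled UUO, and the 6 proximal tubule markers to 15.1 and 729 CPM, with none of either list at 0. The 8 mural markers summed to 94.4 and 282 CPM, the 10 endothelial markers to 297 and 332 CPM and the 8 leukocyte markers to 222 and 88.3 CPM, with Ptprc and Cd3e at 0 labelled UUO. Their part in the library differences was not tested.

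Genes most like each of the 5 were ranked by Pearson correlation of log2 levels (5 CPM added) over 28 profiles, each 1 cluster in 1 library with at least 30 cells, among 14915 genes. Profiles of 1 library share its depth and free RNA, so these values are descriptions. Nearest to Adm were Rbp4 (0.81), Gm37266 (0.81), the chemokine gene Ccl11 (0.81), Gm32885 (0.81) and the cytokine receptor gene Il11ra1 (0.80). Nearest to Calcrl were Mpzl1 (0.85), Plat (0.83), Rab5a (0.81), Bambi (0.79) and Wnt4 (0.78). Nearest to Ramp1 were Rgs2 (0.72), Itga4 (0.70), Mus81 (0.66), Actb (0.66) and Plxdc1 (0.65). Nearest to Ramp2 were Ldb2 (0.80), Slc9a3r2 (0.79), Cdc42ep2 (0.78), Fbxw2 (0.77) and Fkbp1a (0.77). Nearest to Ramp3 were Cd1d1 (0.79), Elk3 (0.76), Iqschfp (0.74), Sgsm3 (0.72) and Myrip (0.72). Among the 5 themselves the highest values joined Ramp2 with Ramp3 (0.66) and with Calcrl (0.53), and Adm with Calcrl gave 0.09.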

How the data were processed

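The deposited matrices hold expected counts (UMIs, not normalised) for every gene in every cell, from alevin of Salmon 0.13.1 with mm10, per the submitters' processing notes. At a tolerance of 1e-06, 92.3% and 91.2% of nonzero values were whole, since alevin can share a UMI among genes. The sources used here do not say how barcodes were chosen. Cells with at least 500 UMIs, 300 genes and at most 20% mitochondrial UMIs were kept (10656 and 1052). The highest doublet scores, 0.8% of cells per 1000 cells, were removed (908 and 9), and cells of both libraries were clustered jointly by the Leiden method (resolution 1, 2000 variable genes, 30 components, 20 neighbours), which gave 30 clusters.

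A cell took the class with most marker UMIs if it held the minimum of distinct markers: 5 for fibroblast, 6 endothelial, 2 mural, 4 leukocyte, 3 proximal tubule and 3 loop and distal tubule. Fibroblast cells with 6 or more endothelial markers were left out as mixed (9 and 1). Counts were summed by class and library and rounded. Log2 ratios and the 2-fold measure add 5 CPM, and folds in the text do not. A gene counted as found in a cell at an expected count of at least 0.5. A count of 0 was set against 3 counts per library. Ratio intervals were tested on simulated counts.

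The members, lists and markers were chosen with earlier results of these data known. Beside the 5 genes, the 2 highest and 2 lowest measured genes of each list and those at 0 were named, except 1 gene that is not reported here. Calca, Gpr182, Pcsk5 and Ednrb were added after their values were seen. Of the gene entries, 52806 matched GENCODE M21, whose coordinates are given. Python 3.11.15, numpy 2.4.6, scipy 1.17.1, pandas 2.3.3, scikit-learn 1.9.0, leidenalg 0.10.2 and matplotlib 3.10.9 were used.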

Additional observations from a re-analysis of the deposited data

Results flagged for a closer look

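Ramp1 stood at 87.2 CPM (73.3 to 103) in leukocyte-like cells labelled sham, a class outside the comparisons of fibroblast-, mural- and endothelial-like cells. It drew attention as a value from a class that had not been compared. It rests on 138 UMIs, and the same cells held 118 Ramp2 and 49 Ramp3 UMIs. Ramp1 was found in 30.4% (25.2 to 35.99) of these 293 cells at a median of 5016 UMIs. Labelled sham, the share was 1.83% of endothelial-like cells at 4143 UMIs. It was 20% (9.05 to 35.6) of mural-like cells at 3712 UMIs and 17.8% of fibroblast-like cells at 8628 UMIs. The library labelled UUO held 2 leukocyte-like cells and gives no comparison.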

How the results depend on the processing

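No paired analysis was possible because each group held 1 library and no test was made. Of the values recomputed under other settings, 251 moved by less than their counting interval and 70 moved by more. Of further values between libraries in endothelial-like cells, 39 moved by less and 1 by more (Ramp1, -1.19 in cells with Y-linked UMIs only). No gene at least 2-fold apart between groups changed direction. The log2 ratio of Adm in fibroblast-like cells (labelled UUO over sham) stayed between 2.10 and 3.68 over 13 alternatives and that of Ramp3 between -3.39 and -2.17. Settings that split cells by cluster, Xist or Y-linked UMIs were chosen after seeing the data. Counts of few UMIs limit the mural-like class, and depth limits shares of cells with a UMI. The cause of these shifts was not tested.

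For fibroblast-like cells, UUO over sham, Adm gave 3.67 with 1 more marker needed, 3.33 with equal weight for each cell and 3.68 with 1 CPM added, and Ramp3 gave -3.39 with 1 CPM added. Without cluster 2, Ramp1 gave 0.52 and Ramp3 -2.17. Without cluster 11, Adm gave 2.10, Calcrl 0.18 and Ramp2 -0.47, and without cluster 25, Calcrl gave -1.61 and Ramp1 -0.37. In cells with Xist only, Adm gave 3.65, Calcrl -1.30 and Ramp2 -0.49, and in cells with Y-linked UMIs only, Adm gave 3.21, Ramp1 0.27 and Ramp2 0.21. For endothelial- over fibroblast-like cells labelled sham, Ramp3 gave 2.61 with equal weight, Ramp2 1.48 when scaled by the median ratio and Ramp1 -2.81 with 1 CPM added. In cells with Xist only, Calcrl gave 0.35, Ramp2 1.43 and Ramp3 2.01, and in cells with Y-linked UMIs only, Adm gave -1.15, Ramp1 -1.54, Ramp2 1.72 and Ramp3 2.67. For mural- over fibroblast-like cells labelled sham, Adm gave -3.00 with 1 more marker needed, and within cluster 20 Calcrl gave -2.34 and Ramp2 -1.19. The same contrast labelled UUO gave -1.29 for Ramp3 both in the main setting and with at least 1000 UMIs per cell, and -3.04 with 1 CPM added. These values rest on a mural-like count of 0 and depend on the CPM added, so no fold is read from them.

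Thinning lowered the shares of cells with a UMI. In fibroblast-like cells labelled sham and UUO they became 2.73% and 23.98% for Adm, 5.44% and 3.16% for Calcrl, 3.39% and 3.16% for Ramp1, 19.4% and 18.4% for Ramp2 and 5.84% and 0.558% for Ramp3. In mural-like cells they became 0% and 0% for Adm, 5.56% and 6.67% for Ramp1, 11.1% and 10% for Ramp2, 5.56% for Ramp3 labelled sham and 3.33% for Calcrl labelled UUO. In endothelial-like cells they became 4.95% and 9.09% for Adm, 8.36% and 10.9% for Calcrl, 0.310% and 0% for Ramp1, 48.9% and 54.5% for Ramp2 and 32.2% and 21.8% for Ramp3. Detection at an expected count of at least 1 gave 63.7% and 58.9% for Ramp2 in fibroblast-like and 84.8% in endothelial-like cells labelled sham. The share with minus the share without Calcrl, after thinning, was 0.0334 percentage points for Ramp1, 0.480 for Ramp2 and 2.10 for Ramp3 in fibroblast-like cells labelled sham, -3.26 for Ramp1 in those labelled UUO, and -21.1 and -42.5 for Ramp2 in endothelial-like cells labelled sham and UUO, where 27 and 6 thinned cells held Calcrl. At an expected count of at least 1 the difference for Ramp2 in fibroblast-like cells labelled sham was 13.4 points.

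Leaving out every cell with a marker of another class kept too few cells (8 fibroblast-like cells labelled UUO) and was not run.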

Other observations

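Cells that met no class minimum, 1344 labelled sham (median 1949 UMIs) and 326 labelled UUO (1508 UMIs), held Adm at 40.2 CPM (34.5 to 46.6) and 170.0 CPM (141 to 204), Ramp3 at 40.7 and 23.5 CPM, and Ramp2 at 185 and 191 CPM. Loop- and distal tubule-like cells labelled sham (158 cells, median 10585 UMIs) held Adm in 16.5% of cells and, after thinning, in 1.27%, beside 14.6% and 2.73% of fibroblast-like cells of that library. Ramp2 was found in 70.3% (62.5 to 77.3) of the loop- and distal tubule-like cells, and after thinning in 5.73% (2.65 to 10.6) against 19.4% of fibroblast-like cells.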
